A study of Mus musculus and Homo sapiens with 22 samples.

Results

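The messenger RNAs of 6 microtubule-associated proteins, tau (Mapt), Map1a, Map1b, Map2, Map4 and Map6, were followed through RNA fractions made from mouse brain and through human HEK293 cells. The genes were taken by symbol, as 6 of the 45093 genes listed for mouse and 6 of the 23737 listed for the human cells. In mouse all 6 passed the floor on low values (at least 1 FPKM in at least 2 libraries), and in the human cells 4 did. FPKM scale the reads of a gene by its transcript length and by the depth of the library, so levels of different genes can be set side by side. The series holds 22 samples, and the purpose of the fractions was to ask which RNAs accompany tau aggregates.

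The 12 mouse libraries came from 2 transgenic lines, and each of the 6 groups has n = 2. The mice called WT here carry human wild-type tau (rTg21221, MAPT*wt behind tetO), and the mice called P301L carry human tau with the P301L change (rTg4510, MAPT*P301L behind tetO). In both lines the transgene is switched on by Camk2a-tTA, a driver of forebrain excitatory neurons, and there was no group without a tau transgene. The strain name of the P301L mice also holds a tet-driven tdTomato-Syp/EGFP reporter that the WT strain name lacks, so its part in any difference between the lines cannot be told apart from that of the tau change. From each line there are libraries of total brain RNA, of the fraction insoluble in 1% sarkosyl, a detergent that leaves aggregated tau in the pellet, and of RNA immunoprecipitated with the tau-12 antibody after the sarkosyl step. The titles of the P301L immunoprecipitates read P301S, while their source and strain read P301L, and the strain was used. Ages are not given in the labels used here, and nothing ties libraries to animals, so p-values measure the spread between libraries, which may be technical. The human libraries came from HEK293 tau biosensor cells, an embryonic kidney line in which a fluorescent protein is fused to tau's repeat domain bearing P301S. Homogenate (200 ug) of P301S mouse brain was given to seed aggregation, and at 24 h total RNA (n = 2) and sorted aggregates (n = 2) were sequenced, with 1 plate of cells per replicate. At 96 h, cells with aggregates (n = 3) and mock transfected cells (n = 3) are described by the authors' deposited tables alone.

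Microtubules are polymers of tubulin, and microtubule-associated proteins bind along them to stabilise, bundle and space them. In neurons tau is mainly axonal and Map2 mainly dendritic. Map1a is prominent in mature neurons and Map1b in growing axons, while Map4 is found in most tissues and Map6 protects microtubules from cold and drugs. Tau is the member that leaves microtubules and forms fibrils in tauopathies, and P301L and P301S are disease mutations in its repeat domain.

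The mouse libraries held 2.49 M to 10.5 M reads assigned to genes, and no mouse member had fewer than 267 reads in any library, so sampling of reads was not the main limit there. Replicates of P301L total RNA differed more than those of any other mouse group over all genes, by a mean squared z of 15.4, where read sampling alone gives about 1. For the members, the higher P301L total replicate exceeded the lower, as a ratio of FPKM + 1, by 2.14 times for Map1a, 1.48 times for Map6, 1.45 times for Mapt and 1.29 times for Map1b, with replicate 2 the lower for each. The same ratio was at most 1.03 for all 6 members in the P301L sarkosyl-insoluble libraries. All 5 sets of brain cell markers (neuron, astrocyte, oligodendrocyte, microglia and endothelial) were above 0 in every mouse library. Summed neuron markers were 1215 to 1315 FPKM in WT total RNA and 914 to 930 in P301L total RNA, while astrocyte markers were 579.8 to 609 and 929.8 to 1012, and microglia markers 49.4 to 49.7 and 135 to 217. Oligodendrocyte markers summed to 773 to 806 FPKM in WT total RNA and 842 to 1029 in P301L total RNA, and endothelial markers to 26.1 to 33.8 and 33.3 to 36.6.

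The members differed widely in level, with some changes of order between libraries. On the RefSeq annotation of GRCm38.p6 they lie on 6 chromosomes, Map2 at chr1:66175202-66442583, Map1a at chr2:121289590-121310832, Map6 at chr7:99266779-99337137, Map4 at chr9:109929841-110083954, Mapt at chr11:104229409-104332090 and Map1b at chr13:99421464-99516602. Map2 was between 205 and 431 FPKM over the 12 libraries and Map1b between 158 and 370.5. Map1a was between 41.2 and 184 FPKM, Map4 between 69.6 and 93.6, and Mapt between 33.4 and 98.9. Map6 was the lowest in every library, at 7.92 to 29.3 FPKM. The order of levels was Map2, Map1b, Map1a, Map4, Mapt, Map6 in both WT total libraries, P301L total replicate 1 and every sarkosyl-insoluble library but WT replicate 1. In the other libraries neighbours in this order changed places. Map4 stood above Map1a in P301L total replicate 2, and Mapt stood above Map4 in WT sarkosyl-insoluble replicate 1 and in all 4 immunoprecipitates. Map1b stood above Map2 in both P301L immunoprecipitates, although Map1b (231 and 272 FPKM) and Map2 (228 and 272 FPKM) overlapped there.

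**Figure D1:**
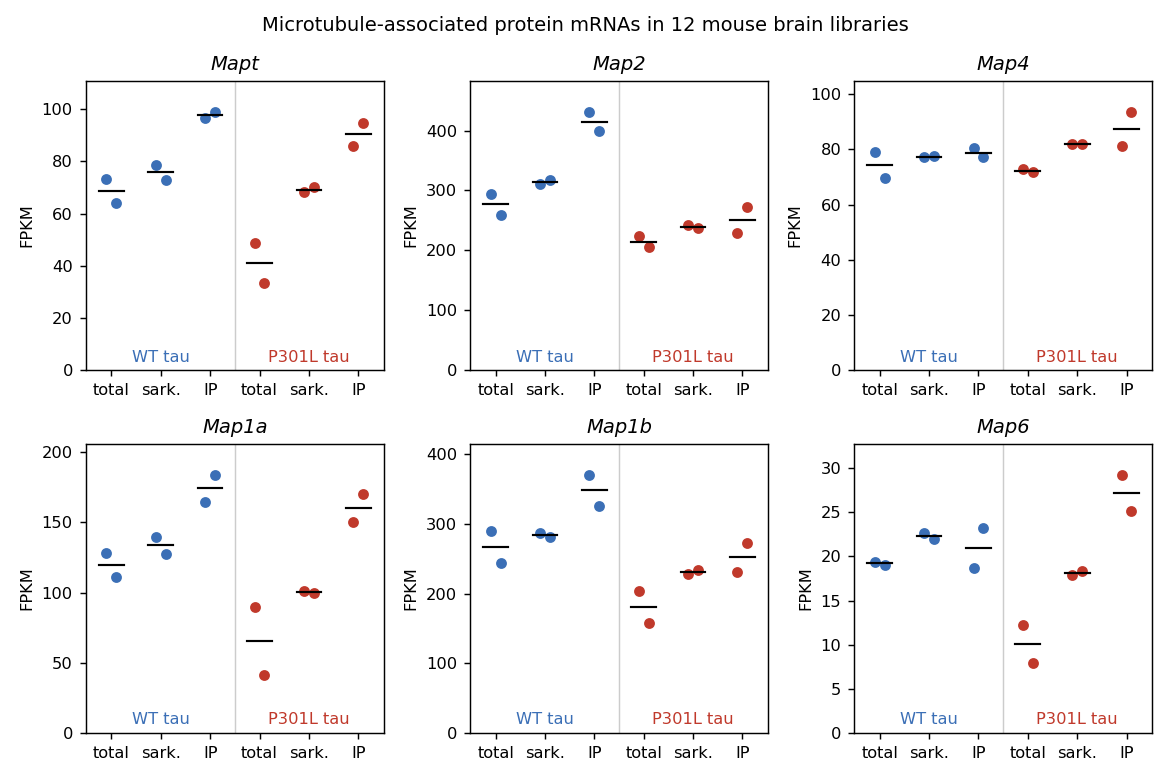
FPKM of each of the 6 mRNAs (vertical axes, starting at 0) in total RNA, the sarkosyl-insoluble fraction (sark.) and the tau-12 immunoprecipitate (IP) of WT tau mice (blue) and P301L tau mice (red). Points are single libraries and bars are means of n = 2. Mapt, Map1a and Map6 show low P301L total points, with P301L immunoprecipitate points above them. Among those mRNAs only Map6 has its P301L immunoprecipitate points above the WT ones. Map4 stays between 69.6 and 93.6 FPKM throughout.

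The immunoprecipitate was first compared with total RNA in P301L brain, the line with aggregating tau. The samples hold no control immunoprecipitate, so RNA that accompanies tau and RNA recovered in other ways cannot be told apart. Of the 6 mRNAs 4 rose, those of tau, Map1a, Map1b and Map6, and 0 fell, on the log2(FPKM + 1) scale with limma and Benjamini-Hochberg adjustment over 18979 genes at 0.05. In this comparison 41.0% of all genes tested were called and 26.0% were called higher, so calls were common among all genes. The immunoprecipitate libraries lay above the total libraries without overlap for all 6 members, as they did for 40.8% of genes. The median difference of the members was 0.81 log2 units, and that of all genes tested was 0.16.

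Mapt was 48.9 and 33.4 FPKM in the P301L total libraries and 85.7 and 94.9 in the immunoprecipitates. The lower immunoprecipitate value was well above the higher total value, and the difference was 1.14 ± 0.16 log2 units (SE; adjusted p = 0.00125, limma). Reads of the human tau transgene may have been assigned to mouse Mapt, and the sources used here do not say how they were counted, so this gene's values may include them. Map6, the cold-stability protein, was 12.2 and 7.92 FPKM in total RNA and 29.3 and 25.1 in the immunoprecipitates. It had the smallest adjusted p of the 6, with a difference of 1.37 ± 0.18 (adjusted p = 0.00103, limma). Map1a was 89.4 and 41.2 FPKM in total RNA and 150.3 and 170.1 in the immunoprecipitates. Its difference of 1.38 ± 0.28 (adjusted p = 0.00532, limma) had the widest error, and the adjusted p was 0.0643 when only these 4 libraries were fitted. Without P301L total replicate 2 the difference was 0.83, and without replicate 1 it was 1.93, both still called.

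Map1b and Map2, the pair with the highest levels, differed less. Map1b was 204 and 158 FPKM in total RNA and 231 and 272 in the immunoprecipitates, a difference of 0.48 ± 0.15 (adjusted p = 0.0315, limma). This call was lost under 6 of 10 other ways of processing and without replicate 2 of either group. The difference was -0.0047 with each library's trend over gene length removed, 0.30 without P301L total replicate 2 and 1.03 with quantile normalization. Map2 was 223 and 205 FPKM in total RNA and 228 and 272 in the immunoprecipitates, and its difference of 0.22 ± 0.12 did not pass the test (adjusted p = 0.169). Map4, the widely expressed member, was 72.8 and 71.7 FPKM in total RNA and 81.2 and 93.6 in the immunoprecipitates, 0.27 ± 0.10 (adjusted p = 0.0537). For Map2 and Map4 the groups stood apart, but the steps between them were small beside those of Mapt, Map1a and Map6. The lack of a call also depended on the processing. With quantile normalization both were called, Map2 at 0.77 (adjusted p = 0.00476, limma) and Map4 at 0.56 (adjusted p = 0.00325, limma). Map4 was also called with a floor of 5 FPKM (adjusted p = 0.0468, limma). With the length trend removed neither was called, at -0.13 for Map2 and -0.081 for Map4.

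The same comparison in WT tau brain gave 2 of 6 members higher, Mapt and Map2, and 0 lower, where 26.3% of genes were called and 13.9% were called higher. Map2 was 294 and 259.9 FPKM in total RNA and 431 and 399 in the immunoprecipitates, a difference of 0.58 ± 0.12 (adjusted p = 0.00741, limma). Mapt was 73.4 and 64.0 FPKM in total RNA and 96.5 and 98.9 in the immunoprecipitates, 0.51 ± 0.16 (adjusted p = 0.0455, limma). Both mRNAs were higher in each immunoprecipitate than in each total library. The Mapt call was lost under 6 of 10 other ways of processing, among them the fit with the replicate number as a block (adjusted p = 0.0686), and on leaving out any 1 of the 4 libraries. The Mapt difference was 0.85 with quantile normalization and 0.28 with the length trend removed. The Map2 call was lost with the length trend removed, where the difference was 0.28, and without WT total replicate 2, and with quantile normalization the difference was 1.65.

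The other 4 members did not pass in WT brain. Map1a was 128 and 111 FPKM in total RNA and 164 and 184 in the immunoprecipitates (0.54 ± 0.28), and Map1b was 290.3 and 243 against 370.5 and 326 (0.39 ± 0.15). Both stood apart without overlap, as 39.3% of genes did, at adjusted p = 0.196 and 0.0926. Map4 was 79.2 and 69.6 against 80.6 and 77.2 FPKM, and Map6 was 19.4 and 19.1 against 18.6 and 23.2. For these latter genes the groups overlapped, with differences of 0.09 ± 0.10 and 0.11 ± 0.18.

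The difference between the lines was tested as an interaction, the immunoprecipitate minus total change in P301L less that in WT. Of the 6 members 1 passed, Map6, where 2.13% of genes were called and 1.24% were called higher. Its change was larger in P301L by 1.26 ± 0.25 (adjusted p = 0.0445, limma). The Map6 immunoprecipitates were at 18.6 and 23.2 FPKM in WT and 29.3 and 25.1 in P301L. The total libraries were at 19.4 and 19.1 in WT against 12.2 and 7.92 in P301L. Both ends entered the value, and the larger part lay in total RNA, with a P301L minus WT difference of -0.90 ± 0.18. The immunoprecipitates of the lines were not tested against each other. The call was lost under 5 of 10 other ways of processing and with 6 of the 8 libraries left out singly. The interaction was 0.63 ± 0.22 for Mapt (adjusted p = 0.146), 0.84 ± 0.40 for Map1a (adjusted p = 0.255) and -0.37 ± 0.17 for Map2 (adjusted p = 0.234). So Map2, called in WT and not in P301L, was not shown to differ between the lines, and neither were Mapt and Map1a. In the immunoprecipitates Mapt was 96.5 and 98.9 FPKM in WT and 85.7 and 94.9 in P301L. Map1a was 164 and 184 there against 150.3 and 170.1, and Map2 431 and 399 against 228 and 272. Their means there were not higher in P301L. In total RNA the P301L minus WT difference was -0.75 ± 0.16 for Mapt, -0.96 ± 0.28 for Map1a and -0.37 ± 0.12 for Map2.

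**Figure D2:**
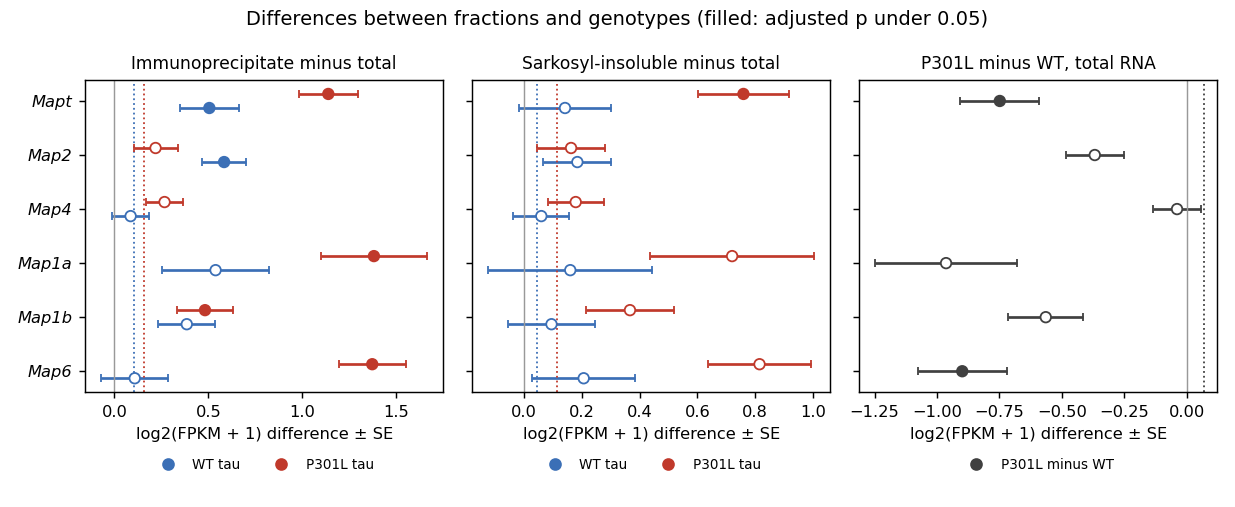
Differences between group means ± SE from limma, in units of log2(FPKM + 1) (horizontal axes, n = 2 libraries a group) for the immunoprecipitate minus total RNA, the sarkosyl-insoluble fraction minus total RNA, and P301L minus WT total RNA. Filled points have an adjusted p under 0.05 and dotted lines mark the median of all genes in each comparison, and in P301L (red) Mapt, Map1a and Map6 stand farthest from that line in both fractions.

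The sarkosyl-insoluble fraction came before the immunoprecipitation, and it was also compared with the same total libraries. In P301L brain 1 of 6 members rose, Mapt, and 0 fell, where 2.72% of genes were called and 1.51% were called higher. Mapt was 68.1 and 70.0 FPKM in the sarkosyl-insoluble libraries against 48.9 and 33.4 in total RNA, a difference of 0.76 ± 0.16 (adjusted p = 0.0477, limma). The Mapt call was lost under 7 of 10 other ways of processing and with 3 of the 4 libraries left out singly. Its difference was 0.49 without P301L total replicate 2, and its adjusted p was 0.0731 with the replicate number as a block. Map6 was 17.9 and 18.3 FPKM against 12.2 and 7.92, a difference of 0.81 ± 0.18 that did not pass (adjusted p = 0.0513). Map1a was 101 and 99.98 FPKM against 89.4 and 41.2 (0.72 ± 0.28, adjusted p = 0.148). That difference was 0.17 without P301L total replicate 2, and 1.27 and called without replicate 1 (adjusted p = 0.00295, limma). Map1b was 229 and 234 against 204 and 158 (0.37 ± 0.15, adjusted p = 0.164). Map2 (243 and 237 FPKM, 0.16 ± 0.12) and Map4 (82.0 and 81.8 FPKM, 0.18 ± 0.10) differed least. All 6 members lay above total RNA without overlap, as 37.7% of genes did.

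In WT brain 0 of 6 members passed between the sarkosyl-insoluble fraction and total RNA with limma, and 0 had an unadjusted p under 0.05; voom on recovered reads also called 0. In all, 0.0211% of genes were called and 0 were called higher. Mapt was 78.6 and 73.0 FPKM in the insoluble libraries against 73.4 and 64.0 in total RNA, so the groups overlapped (0.14 ± 0.16). Map6, at 22.7 and 22.0 FPKM against 19.4 and 19.1 (0.21 ± 0.18), and Map2, at 311 and 317 against 294 and 259.9 (0.18 ± 0.12), were above total RNA without overlap, as 27.8% of genes were. Map1a (139.8 and 128 FPKM), Map1b (286 and 282 FPKM) and Map4 (77.1 and 77.8 FPKM) overlapped with their total values.

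Between the immunoprecipitate and the sarkosyl-insoluble fraction it was taken from, 0 of 6 members passed in P301L, where 8.55% of genes were called, although 3 had an unadjusted p under 0.05, as 28.9% of genes did; voom on recovered reads also called 0. Those 3 were Map6 (0.56 ± 0.18, adjusted p = 0.0821), Map1a (0.66 ± 0.28, adjusted p = 0.164) and Mapt (0.38 ± 0.16, adjusted p = 0.155), and their immunoprecipitate libraries lay above without overlap, as did those of 31.4% of genes. In WT 1 of 6 passed, Map2, where 16.3% of genes were called and 7.18% were called higher. Map2 was 431 and 399 FPKM in the immunoprecipitates and 311 and 317 in the insoluble libraries (0.40 ± 0.12, adjusted p = 0.0495, limma), and with Mapt, Map1a and Map1b it made 4 of 6 members above without overlap, as 34.5% of genes were. That call was lost under 7 of 10 other ways of processing, with adjusted p = 0.08 under the replicate block, and on leaving out any 1 of the 4 libraries, and the difference was 0.21 with the length trend removed and 1.08 with quantile normalization. Map2 in P301L was 228 and 272 FPKM in the immunoprecipitates and 243 and 237 in the insoluble libraries, which overlapped.

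Total RNA of the lines was compared directly, since it is the denominator of the fraction comparisons above. Mapt and Map6 fell in P301L against WT, 2 of 6 members, where 5.86% of genes were called and 3.11% were called lower. Mapt was 73.4 and 64.0 FPKM in WT and 48.9 and 33.4 in P301L, a difference of -0.75 ± 0.16 (adjusted p = 0.0326, limma). Map6 was 19.4 and 19.1 FPKM in WT and 12.2 and 7.92 in P301L, a difference of -0.90 ± 0.18 (adjusted p = 0.0272, limma). Each P301L library lay below each WT library for both genes. The Mapt call was lost under 4 of 10 other ways of processing and the Map6 call under 1, and both were lost without P301L total replicate 2 and without either WT total replicate. The Mapt difference was -0.48 without P301L total replicate 2. With the replicate block Mapt had an adjusted p of 0.0627 and 1 member was called.

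The remaining members of total RNA had differences that did not pass. Map1a was 128 and 111 FPKM in WT and 89.4 and 41.2 in P301L (-0.96 ± 0.28, adjusted p = 0.0798), Map1b 290.3 and 243 against 204 and 158 (-0.56 ± 0.15, adjusted p = 0.0621), and Map2 294 and 259.9 against 223 and 205 (-0.37 ± 0.12, adjusted p = 0.0961). With Mapt and Map6 these make 5 of 6 members below WT without overlap, as 20.6% of genes were. Map4 was 79.2 and 69.6 against 72.8 and 71.7 FPKM, an overlap, with a difference of -0.04 ± 0.10. Of the 7 neuron markers 3 fell in the same comparison and 0 rose, with a median of -0.54, of the 5 astrocyte markers 2 rose, and of the 5 microglia markers 2 rose. Over all genes 2.75% were called higher and 3.11% lower. Fewer neurons and less of an mRNA per neuron cannot be told apart in bulk tissue, and the part of cell makeup in the members' differences was not tested.

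The same markers were set beside the P301L immunoprecipitate. Summed neuron markers were 772 to 862 FPKM in the immunoprecipitates and 914 to 930 in total RNA, and of the 7 markers 2 rose and 1 fell, with a median of -0.14. The part of cell makeup in the members' differences was not tested here either. In WT the neuron markers summed to 1109 to 1180 FPKM in the immunoprecipitates and 1215 to 1315 in total RNA, and 0 rose and 1 fell. Microglia markers were lower in the immunoprecipitates of both lines, at 91.0 to 106 FPKM against 135 to 217 in P301L (0 higher and 2 lower of 5) and at 16.2 to 21.5 against 49.4 to 49.7 in WT (0 higher and 3 lower of 5). Astrocyte markers summed to 682 to 809 FPKM in the WT immunoprecipitates against 579.8 to 609 in total RNA, above without overlap (1 higher and 2 lower of 5). Their median difference there was -0.56, so the sum and the median went opposite ways, and in P301L the median was -0.75. Astrocyte markers summed to 945 to 1052 FPKM in the P301L immunoprecipitates (2 higher and 3 lower of 5), and oligodendrocyte markers to 736 to 981 (1 higher and 2 lower of 5). In WT, oligodendrocyte markers summed to 764 to 809.7 FPKM in the immunoprecipitates and 773 to 806 in total RNA (0 higher and 2 lower of 5), and endothelial markers to 27.3 to 34.8 and 26.1 to 33.8 (1 higher and 0 lower of 5). Endothelial markers were 42.2 to 47.4 FPKM in the P301L immunoprecipitates against 33.3 to 36.6 in total RNA (1 higher and 0 lower of 5). Of all genes, 26.0% were called higher and 15.0% lower in P301L, and 13.9% and 12.4% in WT.

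Gene length moved with the fraction differences, and all 6 members have long transcripts. The lengths implied by the deposited values were 4921 nt for Map6, 5254 for Mapt, 6092 for Map4, 6259 for Map2, 11809 for Map1b and 11826 for Map1a. In P301L the median immunoprecipitate minus total difference was 0.15 for 6211 genes of 2 to 4 kb, 0.28 for 3446 genes of 4 to 6 kb and 0.37 for 2121 longer genes, and 38.9% and 47.5% of the latter 2 sets were called higher. In WT the median was 0.18 for 4 to 6 kb and 0.38 for longer genes, with 15.8% and 38.9% called higher. With each library's length trend removed, the P301L differences were 0.83 for Mapt, 1.08 for Map6 and 0.89 for Map1a, each still called. Removing the trend also turned the split over all genes from 4937 higher and 2843 lower to 3095 higher and 4028 lower. Against genes of like length, Map1b, Map2 and Map4 therefore differed by about the median or less, and in WT 0 of 6 members were called with the trend removed.

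**Figure D3:**
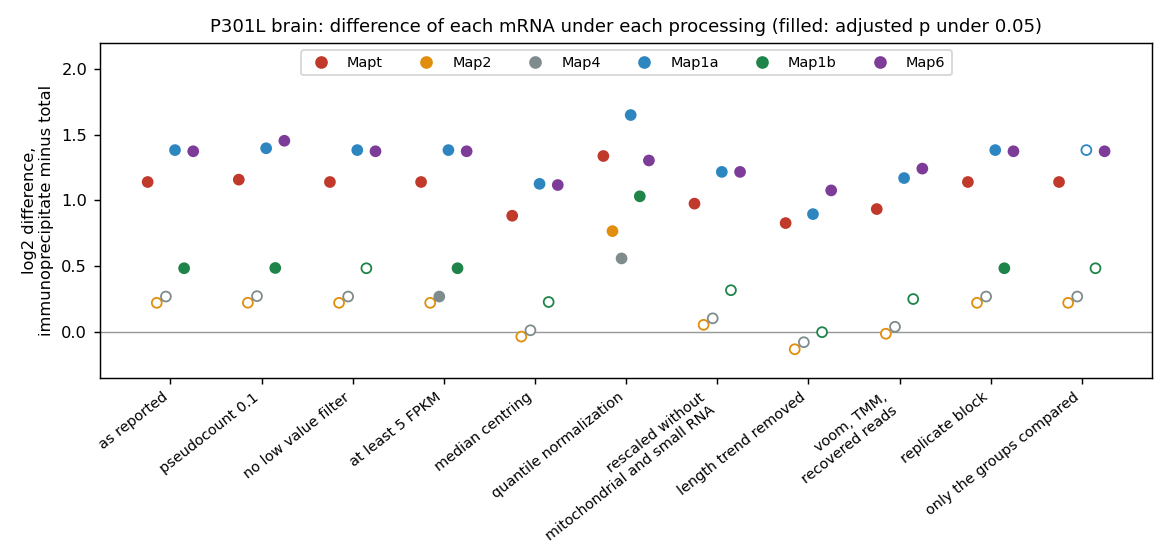
Immunoprecipitate minus total difference in P301L brain (vertical axis, log2 units) of each of the 6 mRNAs as reported and under 10 other ways of processing (horizontal axis), with filled points at an adjusted p under 0.05. Mapt and Map6 are filled in every column, Map1a is open only where the fit used these groups alone, and Map1b, Map2 and Map4 lie near or below 0 with the length trend removed.

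The members did not all vary in step over the 12 libraries. As a description over libraries that share groups and depth, Pearson's r of log2(FPKM + 1) with Mapt was 0.97 for Map1a and 0.91 for Map6, 0.88 for Map1b, 0.71 for Map2 and 0.62 for Map4. Map1b and Map2 went with each other at 0.93. Over 8749 genes of at least 5 FPKM on average, the 5 genes closest to Mapt were Madd (0.99), the synaptotagmin gene Syt7 (0.99), the kinesin motor gene Kif3c (0.98), Doc2b, a calcium sensor of exocytosis (0.98), and Gas7 (0.98). The closest to Map1a were Bcr (0.99) and Pip5k1c (0.99), to Map6 Trank1 (0.99) and Epn1 (0.99), and to Map1b Lmtk2 (0.98) and Tnpo2 (0.98). Map2 went with the potassium channel gene Kcnq3 (0.98) and the phospholipase gene Plcb1 (0.97). Map4 had weaker neighbours, Wdr91 (0.95) and Lrp4 (0.94).

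Other genes that act on microtubules moved both ways between P301L immunoprecipitate and total RNA. Of 37 other microtubule-associated proteins 16 rose and 4 fell, where 26.0% and 15.0% of all genes did, with a median of 0.22 beside 0.16 for all genes. Clip2, a plus-end binding protein, rose from 10.2 ± 4.50 to 37.0 ± 2.92 FPKM (SD, n = 2; 1.81 ± 0.22, adjusted p = 0.000805, limma). Map7d1 (1.63 ± 0.34) and Numa1, which organises spindle poles and went from 17.3 ± 6.79 to 52.7 ± 7.73 FPKM, also rose. The falls were led by mRNAs of the stathmins, which bind free tubulin: Stmn1 went from 114 ± 39.6 to 60.4 ± 16.4 FPKM (-0.89 ± 0.26, adjusted p = 0.025, limma) and Stmn2 changed by -0.83 ± 0.14. Map1lc3b, an autophagy protein first found as a Map1 light chain, fell by 0.69 on the log2 scale. In WT the list had 6 higher and 7 lower of 37, where 13.9% and 12.4% of all genes were, and in total RNA of P301L against WT 0 higher and 2 lower, where 2.75% and 3.11% were.

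Enzymes that add phosphate to tau or remove it were likewise divided. Of 28 tau kinases, phosphatases and their partners 11 rose and 7 fell in the P301L immunoprecipitate, where 26.0% and 15.0% of all genes did, with a median of 0.30 beside 0.16 for all genes. The tau tubulin kinase Ttbk1 rose from 3.60 ± 2.64 to 13.3 ± 1.35 FPKM (SD, n = 2; 1.76 ± 0.33, adjusted p = 0.00371, limma), and the microtubule affinity kinases Mark4 (1.39 ± 0.29) and Mark2 (1.10 ± 0.19) rose with it. Ppp2ca, a catalytic subunit of the main tau phosphatase PP2A, fell by 0.70, and the kinase Mapk8 fell by 0.67 on the log2 scale. In WT 3 rose and 8 fell (13.9% and 12.4% of all genes), and in total RNA of P301L against WT 0 rose and 5 fell (2.75% and 3.11% of all genes). Because the fractions of a line share their total libraries, these counts are not independent of those in total RNA.

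In HEK293 cells at 24 h the aggregates were compared with total RNA of the same kind of cells. MAPT fell in the aggregates, 1 of 4 members tested, and 0 rose, where 41.9% of 13185 rows tested were called and 19.7% were called lower. MAPT was 112.9 and 112.6 FPKM in total RNA and 57.4 and 44.1 in aggregates, from 10537 and 10589 reads against 465 and 264. The groups stood far apart beside their spread, with a difference of -1.15 ± 0.15 (adjusted p = 0.0121, limma). Reads of the repeat domain construct and of the cells' own MAPT gene cannot be told apart in these values. The fit has 2 residual degrees of freedom, and the adjusted p was 0.0991 and 0.105 without replicate 1 and replicate 2 of total RNA.

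The remaining human members showed no call. MAP4 was 46.5 and 48.4 FPKM in total RNA and 48.3 and 45.8 in aggregates (-0.01 ± 0.07, adjusted p = 0.914). MAP1B was 27.6 and 29.5 FPKM against 24.3 and 18.8, below without overlap as 34.9% of rows were (-0.40 ± 0.15, adjusted p = 0.103). MAP1A was 2.85 and 2.38 against 2.47 and 1.40 FPKM, an overlap (-0.32 ± 0.24). Its values rest on 412 and 347 reads against 31 and 13, so low depth limits this comparison too. MAP2 had 25 and 23 reads in total RNA and 3 and 1 in aggregates, and MAP6 had 20 and 12 against 0 and 1. Differences in those 2 mRNAs were not detectable at this depth, which was 13.8 M and 13.9 M reads for total RNA and 1.19 M and 0.884 M for aggregates.

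**Figure D4:**
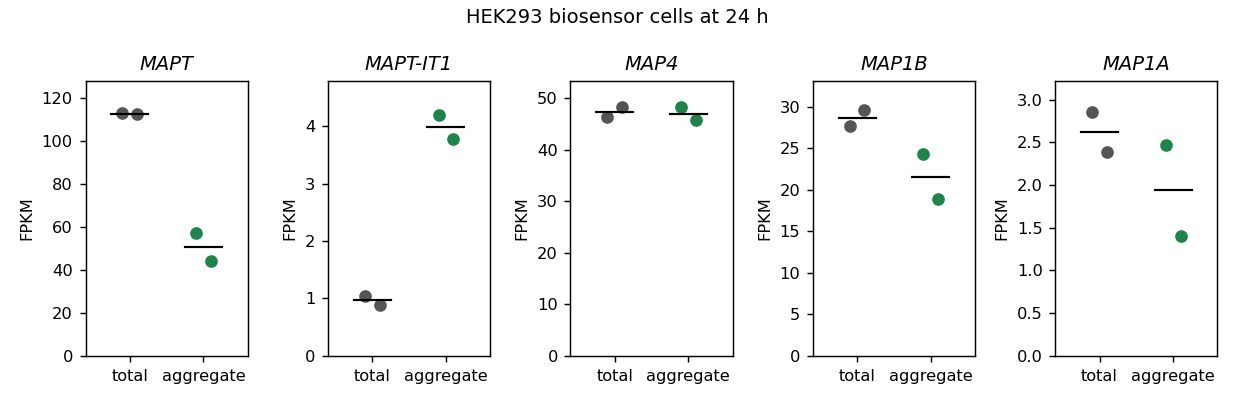
FPKM (vertical axes, starting at 0) in HEK293 biosensor cells at 24 h, in total RNA (grey) and sorted tau aggregates (green), with points for single libraries and bars for means of n = 2. MAPT is 112.6 to 112.9 in total RNA and 44.1 to 57.4 in aggregates, the intronic transcript MAPT-IT1 goes the other way, and the MAP4 groups overlap.

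MAPT-IT1, a noncoding transcript inside an intron of MAPT that was singled out after its values were seen, went against MAPT. It was 1.04 and 0.889 FPKM in total RNA and 4.19 and 3.77 in aggregates, a rise of 1.34 ± 0.15 (adjusted p = 0.00958, limma). The aggregate values rest on 15 and 10 reads, against 43 and 37 in total RNA. Reads of MAPT-IT1 and of unspliced MAPT RNA overlap and cannot be told apart here. The 31 other microtubule-associated proteins tested in these cells had 8 higher and 8 lower, where 22.3% and 19.7% of all rows were. MAP1S (1.05 ± 0.11), the tubulin polymerisation protein TPPP (1.02 ± 0.19) and CLIP2 (0.85 ± 0.14) rose. STMN1 (-1.71 ± 0.10), MAP9 (-1.41 ± 0.25) and the depolymerising kinesin KIF2A (-1.17 ± 0.26) fell. Some of these levels were low, at means of 2.695 FPKM for TPPP and 2.355 for CLIP2 in total RNA, and 2.404 for MAP9 in aggregates. Of 25 tau kinases and phosphatases tested 5 rose and 5 fell, close to those shares of all rows. CSNK1E (2.36 ± 0.32), MARK4 (0.69 ± 0.10) and CSNK1D (0.62 ± 0.09) rose, and PPP2CB (-1.10 ± 0.12), PRKACA (-0.84 ± 0.19) and PPP2CA (-0.74 ± 0.09) fell. CSNK1E was low in total RNA, at 1.11 ± 0.14 FPKM, and uneven in aggregates, at 10.25 ± 4.36 (SD, n = 2).

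At 96 h the authors' deposited tables describe introns and splice junctions in cells with and without aggregates, with no values per sample. Of the 45 member introns with an adjusted p in the authors' deposited table, 0 were called at 0.05, where 1.65% of introns were, and 7 of the members' 81 introns had an unadjusted p under 0.05 (8.64%), near the 7.02% of all introns in that table. The table does not name the direction of its log2 change, and it was set against the splicing table, whose columns name the groups. Of 111 introns with a retention change of at least 0.1 there and an unadjusted p under 0.05, 108 had the same sign when the change was read as with minus without aggregates.

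MAPT introns differed in sign along the gene in the authors' deposited table. From the 5′ end, the first 13 of 19 introns all had negative log2 changes, and 5 of the last 6 had positive ones. This split was set from the same signs, so it describes them and tests nothing. Of the 19 introns 12 had an adjusted p. Over all genes 84899 of 172099 introns had negative changes in that table. The lowest adjusted p was 0.144, for the third intron (chr17:45910780-45931805, hg38), with a change of -0.53 ± 0.19 (SE) in the authors' deposited table. The eighteenth (chr17:46014325-46018617) had 0.55 ± 0.26 there, at adjusted p = 0.384. No single intron passed the authors' adjustment, and the introns of 1 gene share its RNA. MAP4 had negative changes in 25 of 26 introns in the authors' deposited table, with a median of -0.25 and a lowest adjusted p of 0.194. MAP1B (6 of 10 negative) and MAP2 (9 of 13 negative) had medians of -0.05 and -0.07 in the authors' deposited table. MAP1A had 4 positive and 2 negative introns and MAP6 2 positive and 5 negative, none with an adjusted p in that table.

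**Figure D5:**
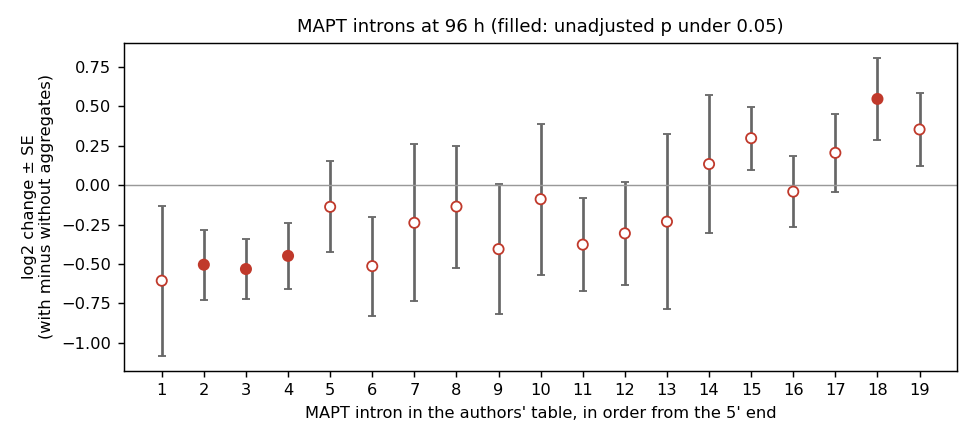
Log2 change ± SE of each of 19 MAPT introns (horizontal axis, in order along the gene) in HEK293 cells with against without aggregates at 96 h, from the authors' deposited table. Filled points have an unadjusted p under 0.05, and 0 pass the authors' adjustment. The first 13 points lie below 0 while 5 of the last 6 lie above, a split set from these same values.

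A single splice choice of MAPT changed between the 96 h groups. In the authors' deposited splicing table, 1 of 43 variations in members was called at a change of at least 0.1 in PSI, the share of junction use from 0 to 1, with the table's probability of a change of at least 0.2 at 0.95 or more. Over all genes 0.115% of 107827 variations were called. The called variation is the choice of donor joined to the MAPT exon at chr17:45991460-45991586 (hg38). In the authors' deposited table, the junction from 45987095 had a PSI of 0.95 without and 0.508 with aggregates, and the junction from 45990075, the end of the next exon along, had 0.05 and 0.492. Among junctions into this exon, the one from the intervening exon was thus rare without aggregates and nearly even with them. The change was 0.44 at probability 0.992 in that table. No listed variation shows how the intervening exon was joined at its other end. The reads behind these PSI values and their spread over samples are not known. The exon after the choice was joined onward in the same way in both groups, at 0.991 to the same acceptor. MAP4 (23 variations) and MAP1B (7) had 0 calls, with largest absolute changes of 0.022 and 0.00087 in the authors' deposited table.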

How the data were processed

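The members and gene lists were chosen with earlier results of these data known. STAR 2.6.0c was the aligner, with hg38 for human and GRCm38.p6 for mouse reads, per the submitters' processing notes. The counter is not given in the sources used. The authors deposited FPKM values, and the mouse files name no unit but behave as FPKM. The deposited intron table holds mean normalized counts (signal), log2 changes, their standard errors (a score) and p-values, per the file headers. The deposited splicing table holds expected PSI, its change and probabilities (other values), per the file headers.

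Values entered limma 3.58.1 (R 4.3.3, trend option) as log2(FPKM + 1) where 2 or more fitted libraries reached 1 FPKM; this scale understates changes of low genes. The 12 mouse libraries were fitted together (6 residual degrees of freedom) and the 4 human libraries alone. Calls used a Benjamini-Hochberg adjusted p under 0.05. FPKM are whole multiples of 1 read per gene (within 0.05 of a read), which gave depth, read numbers, gene lengths and the voom alternative. Of 45093 mouse identifiers 45092 had a symbol. No replicate pair agreed within sampling noise.

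Named genes were the 6 members, up to 3 called genes per direction with the largest change in each list (P301L immunoprecipitate and human aggregate), the closest neighbours over 12 libraries, and member introns and variations called at 96 h. A gene that this rule takes is not reported here. Alternatives were another pseudocount, floors, centring, quantile normalization, rescaling, length trend removal, voom, fewer groups, a replicate block and leaving out libraries.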

Additional observations from a re-analysis of the deposited data

Results flagged for a closer look

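The Map6 change between immunoprecipitate and total RNA differed between the lines by a direct test of that difference. The interaction was 1.265 log2 units larger in P301L than in WT (SE 0.25, adjusted p = 0.0445, limma). Over the alternatives the adjusted p ranged from 0.00664 to 0.168 and the value from 0.98 to 1.55. P301L total replicate 2, which is the lowest Map6 library at 7.92 FPKM, was among the 6 libraries without which the call was lost.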

How the results depend on the processing

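Mapt and Map6 kept their calls in the P301L immunoprecipitate under all 10 settings and without any 1 of 4 libraries. Human MAPT kept its call in the aggregates under all 9 settings used there, but not without either total library. Other calls depended on the settings below. Same-numbered libraries deviated together with r from -0.034 to 0.30 in mouse and 0.093 in the human cells. Such values cannot decide whether same-numbered libraries share a source. As the labels do not pair them, the main fit was unpaired. With a replicate block, members called were 1 for WT immunoprecipitate against total, 0 for P301L sarkosyl-insoluble against total, 0 for WT immunoprecipitate against sarkosyl-insoluble, 1 for total RNA and 0 for the interaction. The block moved no other count of members by over 1.5 times.

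Counts of members called also moved as follows. For P301L immunoprecipitate against total there were 2 with only the groups compared (1559 higher and 984 lower over all genes, against 4937 and 2843 as reported). For WT immunoprecipitate against total there were 1 with no filter, median centring, rescaling without mitochondrial and small RNA genes, or voom, 5 with quantile normalization and 0 with the length trend removed. For P301L sarkosyl-insoluble against total there were 0 with a pseudocount of 0.1, no filter, median centring, rescaling, length trend removal or only the groups compared, and 2 with a floor of 5 FPKM or voom. For WT immunoprecipitate against sarkosyl-insoluble there were 0 with a pseudocount of 0.1, no filter, median centring, rescaling, length trend removal or voom, 3 with quantile normalization and 2 with only the groups compared. For total RNA there were 1 with no filter or quantile normalization, 5 with voom (799 higher and 1613 lower over all genes, against 521 and 591 as reported) and 0 with only the groups compared (0 over all genes). For the interaction there were 0 with no filter, median centring, length trend removal or only the groups compared. For the human aggregates there were 2 with length trend removal and 3 with voom (3101 higher and 4137 lower over all rows, against 2935 and 2595). Where a count over all genes is given here, it moved in the same direction as the members' count. The causes were not tested.

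With 1 library left out, members called ranged from 3 to 5 (P301L immunoprecipitate against total), 0 to 1 (WT), 0 to 4 (P301L sarkosyl-insoluble against total), 0 to 0 (WT), 0 to 0 (P301L and WT immunoprecipitate against sarkosyl-insoluble), 0 to 4 (total RNA), 0 to 3 (interaction) and 0 to 3 (human). Without P301L total replicate 1 the counts were 4 (sarkosyl-insoluble), 4 (total RNA) and 3 (interaction), and without replicate 2 each was 0.

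Differences changed sign in 38 cases, 1 of them of a called value (Map1b, P301L immunoprecipitate). With the length trend removed they did so in P301L immunoprecipitate against total (Map1b -0.0047, Map2 -0.13, Map4 -0.081), WT immunoprecipitate against total (Map1a -0.022, Map1b -0.17, Map4 -0.20, Map6 -0.094), P301L sarkosyl-insoluble against total (Map2 -0.092, Map4 -0.073), WT sarkosyl-insoluble against total (Map1a -0.00061, Map1b -0.065, Map4 -0.049), P301L immunoprecipitate against sarkosyl-insoluble (Map1b -0.033, Map2 -0.042, Map4 -0.0083), WT immunoprecipitate against sarkosyl-insoluble (Map1a -0.021, Map1b -0.11, Map4 -0.15) and total RNA (Map4 0.022). With median centring they did so in P301L immunoprecipitate against total (Map2 -0.038), WT immunoprecipitate against total (Map4 -0.0027), P301L sarkosyl-insoluble against total (Map2 -0.019, Map4 -0.0035), P301L immunoprecipitate against sarkosyl-insoluble (Map2 -0.019), WT immunoprecipitate against sarkosyl-insoluble (Map4 -0.040) and the interaction (Map1b -0.071). With rescaling they did so in WT immunoprecipitate against total (Map4 -0.022), WT immunoprecipitate against sarkosyl-insoluble (Map4 -0.031), total RNA (Map4 0.0099) and human aggregates (MAP4 0.036). With voom they did so in P301L immunoprecipitate against total (Map2 -0.017), WT immunoprecipitate against total (Map4 -0.023), P301L immunoprecipitate against sarkosyl-insoluble (Map2 -0.041, Map4 -0.0057), WT immunoprecipitate against sarkosyl-insoluble (Map4 -0.048) and the interaction (Map1b -0.029). With quantile normalization they did so in the interaction (Map1b -0.34) and human aggregates (MAP4 0.086). With 1 library left out, uncalled differences that took both signs ranged as follows: WT immunoprecipitate against total (Map4 -0.0067 to 0.18, Map6 -0.043 to 0.26), WT sarkosyl-insoluble against total (Map1b -0.032 to 0.22, Map4 -0.033 to 0.15), P301L immunoprecipitate against sarkosyl-insoluble (Map1b -0.0018 to 0.23, Map2 -0.069 to 0.18, Map4 -0.013 to 0.19), WT immunoprecipitate against sarkosyl-insoluble (Map4 -0.0052 to 0.058, Map6 -0.25 to 0.052), total RNA (Map4 -0.13 to 0.054), the interaction (Map1b -0.085 to 0.28), human aggregates (MAP4 -0.049 to 0.026). Depth limits the human MAP2 and MAP6, with at most 3 aggregate reads, and also MAP1A, with 31 and 13.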
